A study of Oryza sativa with 6 samples.

Results

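The stress-associated protein (SAP) genes of rice were followed in root RNA-seq libraries of an OsMADS61 mutant and its wild type. A feature was a member when its deposited symbol read SAP or OsSAP (or iSAP) and a number. Such a symbol was carried by 17 of the 36960 features deposited, and the 10 with the highest read counts summed over all 6 libraries were kept. That sum, the value behind the choice, ran from 24561 for SAP11 to 983 for SAP17 and 875 for SAP7, the last inside, and stood at 85 for OsSAP2, the first outside. The sum takes in both groups and does not use the difference between them. The members as a family, however, were chosen with earlier results of these data known. All 10 members had enough counts to be tested, as did 25531 features in all.

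Samples were roots of Oryza sativa, 3 from the mutant line mads61-3 and 3 from wild-type (WT) plants. Both groups stood in hydroponic nutrient solution with 2.5 mM nitrate, without a fungal partner, and the study asked by this comparison how the MADS-box factor OsMADS61 bears on nitrate transport in such roots. The mutant is a single line, and the labels used here name neither the kind of allele nor the cultivar. The growth protocol puts 5 seedlings in a tank, and nothing says that replicates came from separate tanks, so the tests see just the differences among these libraries, which could be technical.

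SAP proteins carry zinc fingers of the A20 type, the AN1 type or both. A20 fingers bind ubiquitin, and several plant members have been reported to act as ubiquitin ligases or to pass redox and stress signals. In rice many of the genes are known to respond to cold, salt, drought, flooding, wounding or abscisic acid. SAP1 was an early member described in rice, where it is induced by many stresses, and tobacco plants overexpressing it tolerated cold, dehydration and salt better.

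Total read counts ran from 27060698 to 34179150 in the mutant and from 24145708 to 27338562 in WT. OsMADS61 itself (Os04g0461300, chromosome 4) had 214, 73 and 126 read counts in mutant replicates 1 to 3, against 12600, 14468 and 67 in WT replicates 1 to 3 as labelled (log2 -6.40, SE 1.71; edgeR, adjusted p = 0.129; without replicate 3 of WT -6.99, adjusted p = 0.00746). The library labelled WT replicate 3 therefore goes against its label for this gene. The WT libraries also differed over all tested features, by Spearman correlation of log2 CPM. WT replicate 1 stood at 0.8825 with the library labelled WT replicate 3, 0.9392 with WT replicate 2 and 0.9001 to 0.9098 with the mutant libraries. The library labelled WT replicate 3 stood at 0.9514 with WT replicate 2 and 0.8932 to 0.9222 with the mutant libraries. Fold changes of the SAP genes and of other named genes, and counts over gene lists, are given with and without the library labelled WT replicate 3. Group means, level orders, shares and likeness use all 6 libraries. In bulk roots, fewer cells of a type and less RNA per cell cannot be told apart. All 6 root markers matched were detected, LSI1, LSI2, HKT1, RCc3, OsSCR1 and OsSHR1, with summed levels of 3030 to 7104 CPM (read counts relative to library size, scaled by TMM) in the mutant and 1665 to 3115 CPM in WT. Of these 6 edgeR called 0, though 3 higher and 1 lower had an unadjusted p under 0.05, and DESeq2 called 2 higher and 1 lower. Of 20 tested leaf markers 18 had positive log2 fold changes (median 2.37). In edgeR 0 of them were called and 11 had an unadjusted p under 0.05, all higher. The calls numbered 9 in DESeq2, 0 in limma-voom and 1 in limma on FPKM. Their summed level was 795 to 1031 CPM in the mutant and 572.5 to 826 CPM in WT, and none was at 0 in every library. GLO6 alone, with a negative log2 fold change, held 277.4 to 375.0 CPM in the mutant and 237.5 to 575.3 CPM in WT. The sums therefore say little of scarcer markers such as RBCS. It had 5.57, 67.1 and 28.9 CPM in mutant replicates 1 to 3, against 0.438, 4.59 and 1.89 CPM in WT replicates 1 to 3. Leaving out the library labelled WT replicate 3, edgeR called 0 root and 0 leaf markers, with 1 root marker and 11 leaf markers higher at an unadjusted p under 0.05. In that fit 2420 of 26191 tested features were higher and 2661 lower at that level. Over all tested features, with every library kept, 16.5% had an unadjusted p under 0.05 in edgeR, and DESeq2 called 2481 features. The part of these markers in the results below was not tested.

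Mutant roots had fewer transcripts of 3 SAP genes, SAP17, SAP11 and SAP1, than WT roots. SAP17 was 22.0-fold lower (15.2 to 31.8 at 1 SE either way), SAP11 6.60-fold lower (4.97 to 8.77) and SAP1 4.73-fold lower (3.80 to 5.88), with n = 3 libraries in each group. The other 7 members did not pass the test, and their log2 fold changes ran from -1.09 to 0.21. By edgeR's quasi-likelihood test with an adjusted p under 0.05 over all tested features, 3 of 10 members fell and 0 rose. Over all tested features the test called 0.924% lower and 0.325% higher, 1.25% in all. Because the family was chosen with earlier results known, setting it against all features describes it and tests nothing. Before adjustment 4 members, all of them lower, had a p under 0.05, a level that 16.5% of all tested features reached. The median log2 fold change was -0.76 over the 10 members and -0.04 over all tested features, and these medians were -0.84 and 0.00 when the library labelled WT replicate 3 was left out. DESeq2 called the same 3 members, but it called 2481 features in all, 1354 of them lower. Limma-voom called SAP11 and SAP1 among 261 features, 184 of them lower. The files give 6 of the symbols with the prefix Os (OsSAP5, OsSAP6, OsSAP7, OsSAP9, OsSAP15 and OsSAP17), which is dropped here.

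**Figure D1:**
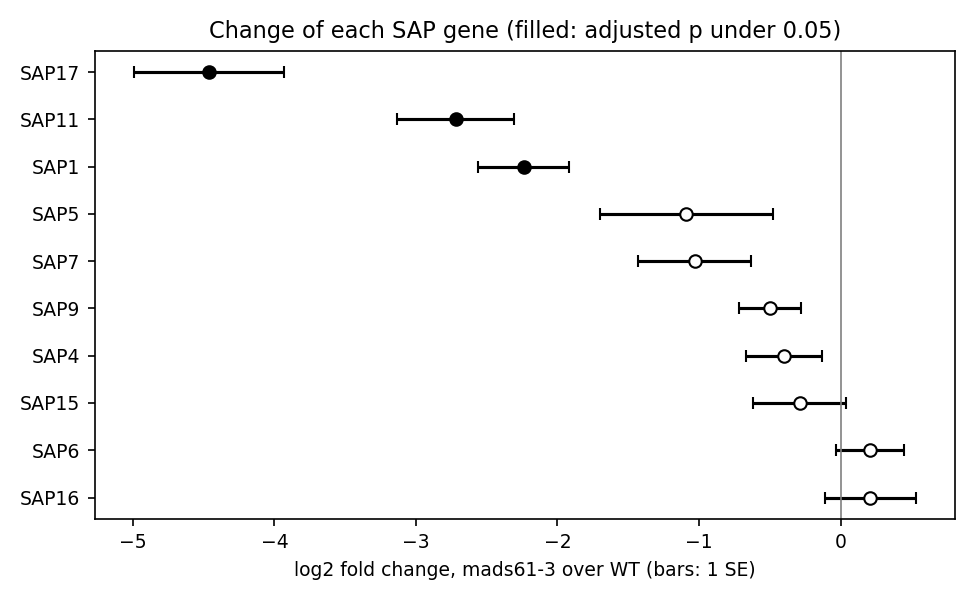
Log2 fold change (mads61-3 over WT, edgeR) of each SAP gene, with bars of 1 SE and n = 3 libraries per group; filled points have an adjusted p under 0.05. SAP17, SAP11 and SAP1 lie at -4.46, -2.72 and -2.24, and the other 7 lie between -1.09 and 0.21.

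SAP11 (Os08g0504700, chromosome 8) encodes a protein that binds the receptor-like cytoplasmic kinase RLCK253 through its A20 finger. Its level was 42.6, 51.6 and 31.6 FPKM (the authors' level, scaled to gene length and depth) in mutant replicates 1 to 3, against 348, 253 and 153 FPKM in WT replicates 1 to 3. No mutant library came near the WT range, in which the library labelled WT replicate 3 was the lowest. The corresponding read counts were 1519, 1475 and 932 in the mutant and 9786, 6435 and 4414 in WT. Mean CPM was 42.4 ± 7.42 in the mutant and 280.1 ± 137 in WT (SD, n = 3 each). The log2 fold change was -2.72 (SE 0.41; edgeR, adjusted p = 0.0387), and the lowest WT library was 3.23 times the highest mutant library.

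SAP1 (Os09g0486500, chromosome 9), which has also been shown to bind RLCK253, had 20.2, 15.8 and 20.9 FPKM in mutant replicates 1 to 3, against 96.1, 97.7 and 59.0 FPKM in WT replicates 1 to 3. The mutant libraries lay close together, and WT replicates 1 and 2 stood above the library labelled WT replicate 3. Its read counts were 639, 401 and 545 in the mutant and 2395, 2197 and 1506 in WT. The CPM means were 17.3 ± 3.58 in the mutant and 81.8 ± 26.0 in WT (SD, n = 3 each). SAP1 had a log2 fold change of -2.24 (SE 0.32; edgeR, adjusted p = 0.0318), with the lowest WT library 2.68 times the highest mutant library.

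SAP17 (Os09g0385700, chromosome 9) was the member with the largest change and was scarce in the mutant. Read counts were 26, 14 and 13 in mutant replicates 1 to 3, against 373, 397 and 160 in WT replicates 1 to 3. That is 53 counts in all in the mutant and 930 in WT, so the mutant level rests on few reads. In FPKM the values were 0.941, 0.629 and 0.583 in the mutant and 17.6, 20.7 and 7.36 in WT. Every mutant library was far below every WT library, and the library labelled WT replicate 3 again was the lowest of its group. SAP17 had a log2 fold change of -4.46 (SE 0.53; edgeR, adjusted p = 0.0221), and the lowest WT library was 7.51 times the highest mutant library. In limma-voom SAP17 just missed the threshold (log2 -4.28, adjusted p = 0.0516).

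All 3 genes kept their direction under every setting tried, but the calls hung on single libraries. Without the library labelled WT replicate 3 the log2 fold changes were -3.01 for SAP11, -2.47 for SAP1 and -4.80 for SAP17 (edgeR, adjusted p = 0.0129, 0.0122 and 0.00746). Without WT replicate 1 all 3 were still called. Without WT replicate 2 the adjusted p in edgeR was 0.0859 for SAP11, 0.0852 for SAP1 and 0.0583 for SAP17. Leaving out mutant replicate 1, 2 or 3 gave SAP11 an adjusted p of 0.182, 0.104 and 0.201 in edgeR. For SAP1 these were 0.169, 0.0919 and 0.157, and for SAP17 they were 0.134, 0.0774 and 0.147. Calls over all tested features also dropped in these subsets, to 0, 14 and 0, from 319 with all 6 libraries. Without WT replicate 2 edgeR called 107 features, without WT replicate 1 it called 663. Over all 13 alternatives SAP11 kept a log2 fold change of -3.01 to -2.28, SAP1 of -2.47 to -2.02 and SAP17 of -4.80 to -3.13, the last on the log2(FPKM + 1) scale, where the pseudocount of 1 holds down the difference of a gene this low in the mutant. The direction in the subsets was fixed beforehand, since the groups do not overlap in these genes.

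**Figure D2:**
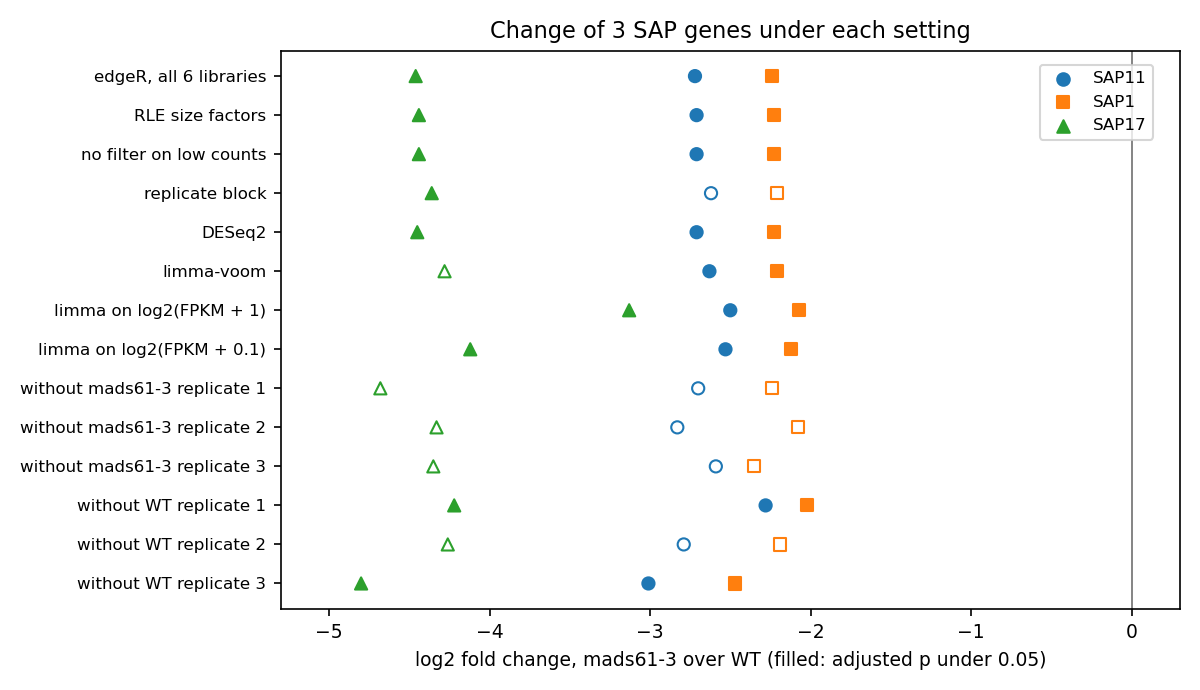
Log2 fold change (mads61-3 over WT) of SAP11, SAP1 and SAP17 under each setting, filled where the adjusted p was under 0.05. The points stay between -4.80 and -2.02, while the points without any 1 mutant replicate or without WT replicate 2 are open for all 3 genes, as are those of SAP11 and SAP1 with the replicate block and that of SAP17 in limma-voom.

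SAP5 and SAP7 had lower means in the mutant by about the same log2 difference, and neither passed the test. SAP5 (Os02g0530300, chromosome 2) had 16.5, 10.1 and 19.3 FPKM in mutant replicates 1 to 3, against 46.7, 33.7 and 9.76 FPKM in WT replicates 1 to 3. The library labelled WT replicate 3 lay below every mutant library in FPKM, and in CPM it lay within the mutant range at 7.58, against 7.23 to 15.8 CPM in the mutant. SAP5 had a log2 fold change of -1.09 (SE 0.61; edgeR, adjusted p = 0.436), and without that library -1.53 (adjusted p = 0.106). The WT group of SAP5 spread 5.74-fold from its lowest to its highest CPM, the widest among the members.

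SAP7 (Os03g0793000, chromosome 3) has been reported as a negative regulator of abscisic acid and water-deficit responses in Arabidopsis plants that carry it. It had 4.64, 6.55 and 2.39 FPKM in mutant replicates 1 to 3, against 9.36, 8.34 and 7.65 FPKM in WT replicates 1 to 3. All mutant libraries were below all WT libraries, with a log2 fold change of -1.03 (SE 0.40; edgeR, adjusted p = 0.263; unadjusted p = 0.036 in the fit over all features). The SE was smaller than that of SAP5, and the WT libraries of SAP7 lay closer together, with a highest CPM 1.47 times the lowest. In the mutant its highest CPM was 2.39 times the lowest, the widest mutant spread among the members.

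SAP9 (Os07g0168800, chromosome 7) also had no overlap between groups, with 42.6, 33.3 and 39.4 FPKM in mutant replicates 1 to 3, against 51.5, 46.8 and 55.6 FPKM in WT replicates 1 to 3. With a log2 fold change of -0.50 and an SE of 0.22, SAP9 was not called (edgeR, adjusted p = 0.322). In all, 5 of 10 members had every mutant library below every WT library in CPM, namely SAP17, SAP11, SAP1, SAP7 and SAP9, and 0 members had the reverse. Over all tested features 22.7% had groups without overlap, 11.3% wholly below WT and 11.4% wholly above. Here too the comparison is descriptive, since the family was chosen with earlier results known.

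The remaining 4 members overlapped between groups. SAP4 (Os02g0195600, chromosome 2) had 107, 94.5 and 103 FPKM in mutant replicates 1 to 3, against 149, 118 and 106 FPKM in WT replicates 1 to 3 (log2 -0.40, SE 0.27; edgeR, adjusted p = 0.511). SAP15 (Os05g0299700, chromosome 5) had 46.8, 44.5 and 49.0 FPKM in the mutant and 69.3, 52.7 and 36.2 FPKM in WT. Its mutant libraries sat in the middle of a broad WT range. The log2 fold change of SAP15 was -0.29 (SE 0.33; edgeR, adjusted p = 0.722), and it turned to 0.09 without WT replicate 1.

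SAP6 and SAP16 were the 2 members with positive log2 fold changes. SAP6 (Os03g0792900, chromosome 3), reported to raise tolerance of soda saline-alkaline stress in rice, had 46.9, 32.7 and 42.8 FPKM in mutant replicates 1 to 3, against 33.7, 33.1 and 33.4 FPKM in WT replicates 1 to 3. Mutant replicate 2 lay just below the WT libraries and the other mutant libraries above them (log2 0.21, SE 0.24; edgeR, adjusted p = 0.726). SAP16 (Os07g0569700, chromosome 7), a gene tied to germination at low temperature in rice, had 19.1, 13.9 and 22.9 FPKM in the mutant and 18.1, 13.8 and 13.5 FPKM in WT. Its log2 fold change was 0.21 (SE 0.32; edgeR, adjusted p = 0.802), and -0.01 without mutant replicate 3. SAP6 and SAP7 have consecutive locus numbers on chromosome 3, and their log2 fold changes had opposite signs. The difference between them was not tested. Without the library labelled WT replicate 3 the log2 fold changes were -1.13 for SAP7, -0.49 for SAP9, -0.54 for SAP4, -0.53 for SAP15, 0.17 for SAP6 and 0.09 for SAP16, and edgeR called 0 of these and SAP5, with SAP5 and SAP7 at unadjusted p = 0.00779 and 0.0397 in the fit over all features. In that fit 5081 of 26191 tested features had an unadjusted p under 0.05.

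**Figure D3:**
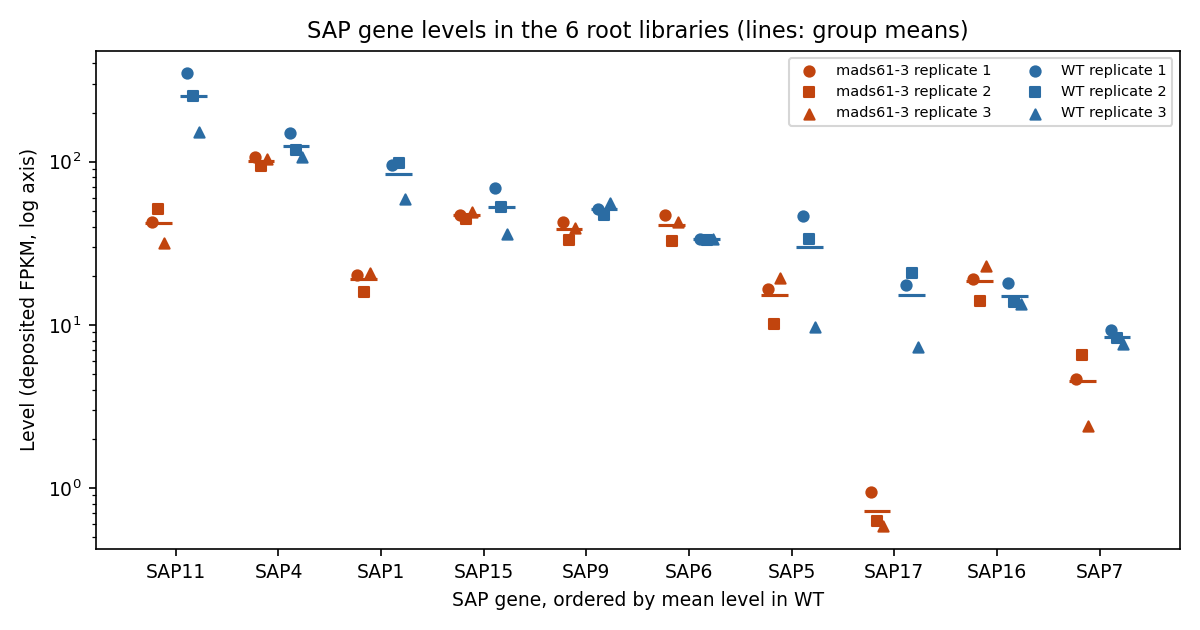
Deposited FPKM on a log axis for each SAP gene in each library, mads61-3 (red) left of WT (blue), with lines at the group means and a marker shape for each replicate number. SAP17 lies between 0.583 and 0.941 FPKM in the mutant and between 7.36 and 20.7 FPKM in WT, while the groups of SAP15, SAP6, SAP16, SAP4 and SAP5 overlap.

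Ranked by FPKM, which takes gene length into account, SAP4 led in the mutant with a mean of 101.4 ± 6.29, followed by SAP15 (46.8 ± 2.21), SAP11 (41.9, libraries 31.6 to 51.6), SAP6 (40.8 ± 7.28) and SAP9 (38.5 ± 4.74). Those 4 after SAP4 had overlapping ranges from each to the next. SAP1, SAP16 and SAP5 formed a lower overlapping run of 19.0 ± 2.74, 18.6 ± 4.50 and 15.3 ± 4.69 FPKM, and SAP7 (4.53 ± 2.08) and SAP17 (0.718 ± 0.195) each stood apart (SD, n = 3 each). In WT SAP11 led with 251 ± 97.4 FPKM, its lowest library at 153 just above the highest of SAP4 at 149. SAP4 followed with 124.5 ± 22.2, then SAP1 with 84.3 ± 21.9, whose range overlapped that of SAP15 (52.7 ± 16.6), which in turn overlapped that of SAP9 (51.3 ± 4.38). SAP6 (33.4 ± 0.263), SAP5 (30.1 ± 18.7), SAP17 (15.2 ± 6.98) and SAP16 (15.1 ± 2.55) overlapped each with the next, and SAP7 was last at 8.45 ± 0.862 FPKM. SAP11 thus ranked 3 in the mutant and 1 in WT, and SAP1 ranked 6 in the mutant and 3 in WT.

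Summed over the 10 members, the level was 347, 304 and 332 FPKM in mutant replicates 1 to 3, against 839, 678 and 482 FPKM in WT replicates 1 to 3. This sum is not that of the whole family, since it leaves out Osi-SAP8, described below. That gene alone had 1514, 1677 and 1969 FPKM in the mutant and 1186, 1011 and 594 FPKM in WT. SAP11, SAP1 and SAP17 together made up 18.4%, 22.4% and 16.0% of the sum over the 10 members in the mutant and 55.0%, 54.8% and 45.5% in WT. The other 7 members summed to 283, 236 and 279 FPKM in the mutant and 378, 306 and 262 FPKM in WT, ranges that overlap. These 3 genes were grouped by their calls, so the shares describe the change and do not test it. Within a library, where depth and scaling cancel out, SAP11 stood to SAP4 as 0.399, 0.546 and 0.306 in the mutant and as 2.33, 2.15 and 1.44 in WT. The same ratio for SAP1 was 0.190, 0.168 and 0.202 in the mutant and 0.644, 0.829 and 0.554 in WT.

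**Figure D4:**
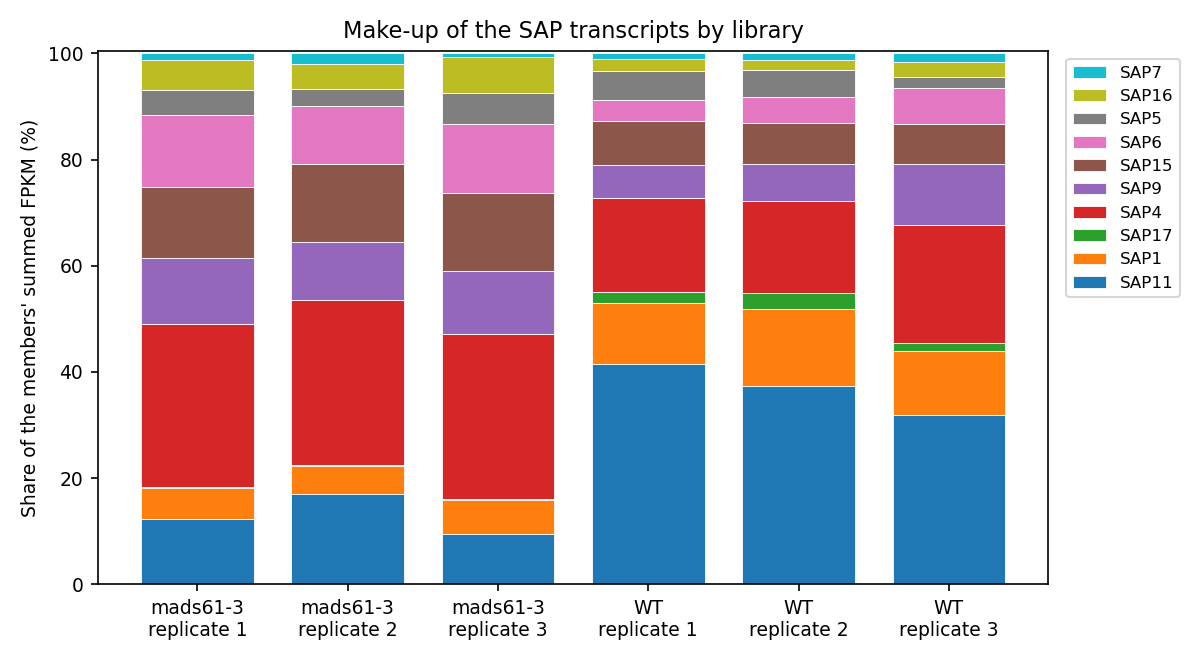
Share (%) of each SAP gene in the summed FPKM of the 10 members, one bar per library, with the mutant libraries on the left and SAP11, SAP1 and SAP17 at the bottom of each bar. These 3 fill 16.0% to 22.4% of the mutant bars and 45.5% to 55.0% of the WT bars, and SAP4 takes 30.7% to 31.1% of the mutant bars. Osi-SAP8, more abundant than the 10 together, is not in the bars.

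The same libraries were high or low for most members. In CPM WT replicate 1 was the highest of its group for all 10 members and in FPKM for 7, and the library labelled WT replicate 3 was the lowest for 7 members in CPM and 8 in FPKM. In the mutant, replicate 2 was the lowest for 8 members in CPM and 7 in FPKM. SAP7 was an exception there, with its highest mutant value in replicate 2, and so was SAP11. The TMM factor, by which CPM is divided, was lowest for WT replicate 1 (0.8543) and highest for mutant replicate 2 (1.121). Whether these library orders are particular to the SAP genes was not tested.

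**Figure D5:**
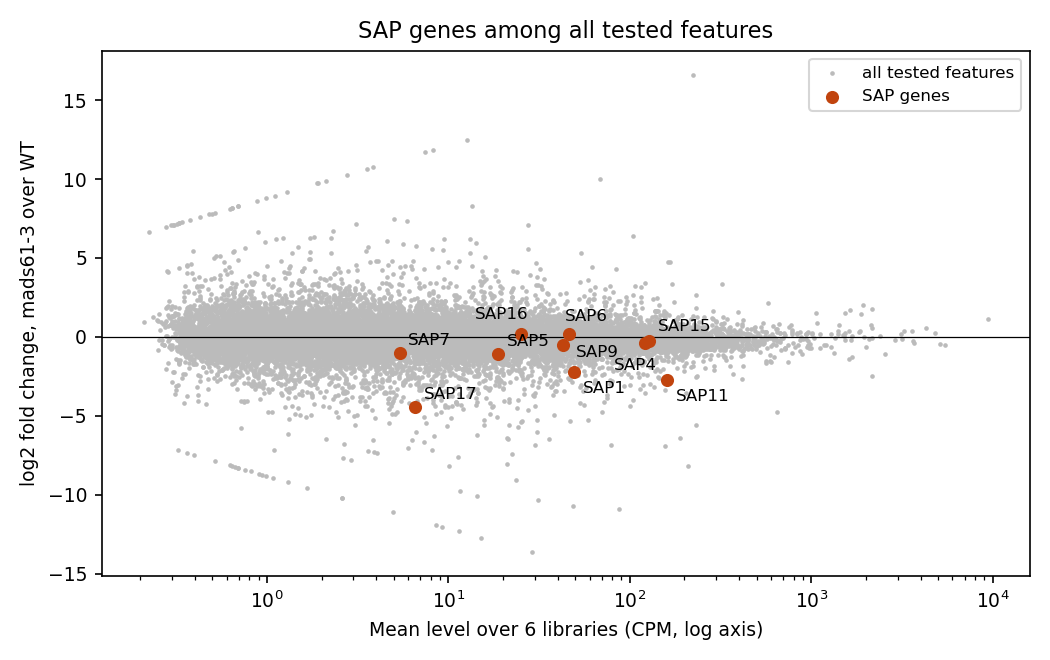
Log2 fold change (mads61-3 over WT) against mean CPM over the 6 libraries (log axis) for all 25531 tested features in grey and the 10 SAP genes in red. SAP17, SAP11 and SAP1, at -4.46, -2.72 and -2.24, lie on the lower side of the dense grey band, with other features farther below, and the other 7 SAP genes lie between -1.09 and 0.21.

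The 7 matched genes outside the members were low or undetected. OsSAP2 had 24, 16 and 16 read counts in mutant replicates 1 to 3, against 18, 6 and 5 in WT replicates 1 to 3, and was tested without a call (log2 0.61, SE 0.67; edgeR, adjusted p = 0.713). OsSAP13 had 8 counts in all and OsSAP10 had 2. OsSAP3, OsSAP12, OsSAP14 and OsSAP18 were at 0 in every library, which with 3 counts as the upper limit of a 0 allows at most 0.131 CPM in any library. RefSeq gives the name SAP3 to a gene on chromosome 6 that it also calls SAP8, not to a chromosome 1 gene such as the locus labelled OsSAP3 (Os01g0765900) here, so that label is uncertain. OsSAP14 stands near SAP6 and SAP7 by locus number, and OsSAP10 and OsSAP18 near SAP9.

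A further family gene was left out by the spelling of its symbol alone, Osi-SAP8 (Os06g0612800, chromosome 6), whose overexpression is known to raise tolerance of salt, drought and cold. It was more abundant than all 10 members together in every library, with 1514, 1677 and 1969 FPKM in mutant replicates 1 to 3, against 1186, 1011.0 and 594 FPKM in WT replicates 1 to 3. Every mutant library was above every WT library. Its log2 fold change was 0.79 (SE 0.40; edgeR, adjusted p = 0.387), so it was not called, and over 13 alternatives it ran from 0.52 to 1.13 with an adjusted p of 0.0982 to 0.783. The value of 0.52 came from leaving out the library labelled WT replicate 3. Osi-SAP8 was picked out after its values were seen.

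Tested loci next to the 3 called members by locus number are given beside them. Of 12 such loci, 2 on each side of each gene, edgeR called 0, their adjusted p was at least 0.168 and 2 had an unadjusted p under 0.05. DESeq2 called 1, limma-voom 0, and limma on FPKM 0 with a pseudocount of 1 and 1 with 0.1. Their log2 fold changes ran from -4.06 for Os09g0484900, a locus near SAP1 with means of 0.0857 CPM in the mutant and 1.42 CPM in WT, to 1.17. With the library labelled WT replicate 3 left out, edgeR again called 0 of the 12, and 2 had an unadjusted p under 0.05. That level was reached by 5081 of 26191 tested features in the same fit. The 4 loci around SAP11 had log2 fold changes of -0.67 to 0.10 and the 4 around SAP17 of -0.18 to 0.33.

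Among 6848 other named genes with at least 1 CPM on average, the 5 most like SAP11 over the 6 libraries, by Pearson r of log2 CPM, were OsRFPH2-3 (r = 0.999), OsERF_141 (0.998), OsLSD3, OsRFPHC-2 and OsPP2C32 (0.996 each). OsERF_141, of the AP2/ERF factors, had 0.848 ± 0.194 CPM in the mutant and 18.4 ± 11.7 in WT (SD, n = 3 each). OsPP2C32, a protein phosphatase gene, had 22.0 ± 3.57 CPM in the mutant and 118.9 ± 53.4 in WT. The 5 most like SAP17 were OsStr9 (r = 0.998), SODA1 (0.997), OsVQ3 (0.996), FNR (0.995) and ERF77 (0.994). FNR, a ferredoxin-NADP reductase gene, had 32.4 ± 5.03 CPM in the mutant and 378 ± 109 in WT. SODA1, a superoxide dismutase gene, had 76.7 ± 3.94 CPM in the mutant and 143.8 ± 17.4 in WT. All 10 genes had negative log2 fold changes, from -4.43 for OsERF_141 to -0.91 for SODA1, and all were again negative when the library labelled WT replicate 3 was left out, at -4.76 for OsERF_141. The 6 libraries fall into 2 groups, so r ranks the genes and tests nothing. The negative signs follow from the choice by r, since SAP11 and SAP17 were lower in every mutant library than in any WT library.

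OsRLCK253 (Os08g0374600, chromosome 8), the kinase that binds SAP1 and SAP11, had 8, 14 and 12 read counts in mutant replicates 1 to 3, against 58, 44 and 75 in WT replicates 1 to 3. Its groups did not overlap. OsRLCK253 is named outside the naming rule, being neither called nor among the 2 most abundant of its list. The log2 fold change of -2.61 (SE 0.47) lay just outside the threshold in edgeR (adjusted p = 0.0544), inside it in DESeq2 (adjusted p = 6.56e-05) and in limma on log2(FPKM + 1) (adjusted p = 0.0257), and its range over all 13 alternatives was 6.56e-05 to 0.245. Without the library labelled WT replicate 3 the log2 fold change was -2.49 and the gene was not called (edgeR, adjusted p = 0.07). Limma-voom did not call it with all libraries (adjusted p = 0.0629), and limma on log2(FPKM + 0.1) did (adjusted p = 0.0299). The list of reported partners otherwise held serine carboxypeptidase genes caught by their SCP names. Of its 30 tested members edgeR called 0, and an unadjusted p under 0.05 was reached by 3 with higher and 3 with lower levels. The calls were 4 higher and 2 lower in DESeq2, 0 in limma-voom and 1 lower in limma on FPKM. Counts over all features stand with the other gene lists below. When the library labelled WT replicate 3 was left out, edgeR called 1 higher and 1 lower of 31 (OsSCP19 higher and OsSCP13 lower, named after their values were seen). The most abundant were OsSCP56 (74.9 ± 17.0 CPM in the mutant and 53.0 ± 27.4 in WT) and OsSCP32 (68.0 ± 9.20 CPM in the mutant and 38.4 ± 7.03 in WT), and the median log2 fold change was 0.13.

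Other gene lists are read against the 1.25% of all tested features that edgeR called. An unadjusted p under 0.05 in edgeR was reached by 16.5% of all tested features. DESeq2 called 1127 features higher and 1354 lower, and limma-voom 77 and 184. Limma on FPKM called 203 and 320 with a pseudocount of 1, and 247 and 377 with 0.1. Without the library labelled WT replicate 3, edgeR called 195 higher and 529 lower of 26191 features. Of 13 tested genes for protective proteins (late embryogenesis abundant proteins, dehydrins and proline synthesis) 1 fell and 0 rose by edgeR, and the median log2 fold change was -0.65. It was OsLEA9 (Os01g0314800), with 2.46 ± 0.868 CPM in the mutant and 25.0 ± 11.3 in WT (log2 -3.34, SE 0.47; edgeR, adjusted p = 0.0318). Without adjustment 5 were lower and 0 higher at a p under 0.05, the same counts as DESeq2 called. When the library labelled WT replicate 3 was left out, 1 of 14 fell, OsLEA9 again (log2 -3.33; edgeR, adjusted p = 0.0351), and the list's median was -0.08. Of 125 tested ubiquitin, SUMO and proteasome genes 1 rose and 1 fell by edgeR, close to the 0.325% called higher and the 0.924% called lower over all features. The list's median log2 fold change was -0.03, and 5 higher and 11 lower ones had an unadjusted p under 0.05. There were 3 higher and 8 lower calls in DESeq2, 1 and 1 in limma-voom, and in limma on FPKM 1 and 1 with a pseudocount of 1 and 1 and 3 with 0.1. The U-box ubiquitin ligase gene OsPUB52 had 15.9 ± 3.54 CPM in the mutant and 3.23 ± 0.646 in WT (log2 2.30, SE 0.30; edgeR, adjusted p = 0.0254). OsPUB2, of the same class, had 4.83 ± 1.16 CPM in the mutant and 47.3 ± 28.4 in WT (log2 -3.29, SE 0.48; edgeR, adjusted p = 0.0356). Both were also called when the library labelled WT replicate 3 was left out, with log2 fold changes of 2.41 for OsPUB52 and -3.46 for OsPUB2.

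Of 6 other zinc finger genes of stress responses edgeR called 0, while 1 higher and 2 lower ones had an unadjusted p under 0.05, the same counts as in DESeq2. In limma-voom 1 was called higher, and in limma on FPKM 1 higher and 1 lower. Their median log2 fold change was -0.70. The 2 most abundant were OsZFP7 (24.7 ± 6.96 CPM in the mutant and 22.0 ± 14.0 in WT) and OsZFP6 (30.6 ± 8.26 CPM in the mutant and 3.36 ± 2.46 in WT; log2 3.19, edgeR, adjusted p = 0.0613). ZFP182, a C2H2 factor of salt and drought responses, had a log2 fold change of -4.07 (edgeR, adjusted p = 0.0513), and ZFP36, a C2H2 factor of abscisic acid responses, one of -3.77 (adjusted p = 0.0852). When the library labelled WT replicate 3 was left out, edgeR called OsZFP6 (log2 2.78, adjusted p = 0.0358) and ZFP182 (log2 -4.46, adjusted p = 0.0195) and not ZFP36 (log2 -3.65, adjusted p = 0.0966), and OsZFP7 turned in sign, at 0.17 with that library and -0.21 without it. ZFP182 and ZFP36 were named after their values were seen.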

How the data were processed

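Per the labels' protocols, Trizol was used for root RNA and a Hieff NGS Ultima Dual-mode kit for the mRNA libraries. The deposited count table holds whole-number read counts per feature, not normalised, and the deposited FPKM table holds the authors' values scaled to length and depth. Per the submitters' processing notes, the tools were HISAT2 2.0.5, SAMtools 0.1.18, Picard 1.41, StringTie 1.3.3, CASAVA 1.8.2 and FastQC 0.11.9, with no role or order stated. The build named there is human, though the features carry rice locus numbers. A rice build, the counter and the strand setting were not given in the sources used here. Coordinates are therefore left out, antisense reads cannot be told apart, and chromosomes come from locus identifiers. How reads shared by similar SAP genes were split is not known. The 3 numbered mads61 columns were taken as the replicates of the same numbers of line mads61-3.

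The test was edgeR 4.0.16 (R 4.3.3), quasi-likelihood, robust, two-sided, TMM scaling, filter at minimum count 10 and minimum total 15, group as the only term, Benjamini-Hochberg adjustment over all 25531 features kept, called at an adjusted p under 0.05. SEs are the fold change (log2) over the square root of F. Alternatives used DESeq2 1.42.0, limma 3.58.1 on counts (voom) and on log2(FPKM + 1) or log2(FPKM + 0.1), RLE scaling, no filter, the replicate number as a block, and each library left out. On simulated counts of 25050 genes with these group sizes, 46 of 100 genes changed 4-fold and 93 of 100 changed 16-fold were recovered, with 14 false calls. The changed genes were drawn from those with higher counts, and noise was drawn for each gene on its own. Libraries that deviate together over many genes were not simulated, so these are not rates for the real libraries. Floors cover counting error only. Log2 CPM for likeness used a prior count of 2.

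The members, gene lists and naming rule were chosen with earlier results of these data known. Named were all members, the 5 genes most like SAP11 (the most abundant) and SAP17 (the largest change), and from each list the called members or else the 2 most abundant. Osi-SAP8, OsRLCK253, ZFP182, ZFP36, OsSCP13 and OsSCP19 were named outside this rule. A list of A20/AN1 genes under other names matched 0 symbols. All 10 members have 1 RefSeq gene (assembly ASM3414082v1) with that SAP number among its names, on the same chromosome. Sequences were not used here.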

Additional observations from a re-analysis of the deposited data

How the results depend on the processing

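The count of all called genes, 319 by edgeR, was 81 with the replicate block, 2481 in DESeq2, 523 in limma on FPKM with a pseudocount of 1 and 624 with 0.1, and 0 to 724 with 1 library left out. The count of called SAP genes, 3, was 1 with the replicate block (SAP17; SAP11 and SAP1 had adjusted p = 0.0616 and 0.077 there), and 0 to 3 with 1 library left out. It was 0 in edgeR without mutant replicate 1, 2 or 3 or WT replicate 2, with 3, 4, 3 and 3 members at an unadjusted p under 0.05. Over all tested features 2641, 3935, 2608 and 3196 reached that level in these subsets. EdgeR alone was run on subsets. RLE scaling, no filter, DESeq2, both FPKM fits and leaving out WT replicate 1 or the library labelled WT replicate 3 gave 3, and limma-voom 2. With 1 library left out, SAP15 ran from -0.53 to 0.09 (log2, turned without WT replicate 1) and SAP16 from -0.01 to 0.47 (turned without mutant replicate 3); the cause was not tested. Libraries of the same replicate number did not deviate together in every pair (r = 0.112, 0.193 and -0.177 across genes for numbers 1 to 3), so the numbers are not taken to pair samples. SAP17 rests on 53 mutant counts, where depth limits the fold change.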
